A study of Mus musculus with 6 samples.

Results

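Calcineurin and the NFAT transcription factors were examined as a set of 10 genes, taken by symbol from the 55487 genes measured in naive CD4+ T cells of mouse spleen. They were the calcineurin catalytic subunit genes Ppp3ca, Ppp3cb and Ppp3cc, the regulatory subunit gene Ppp3r1, the calcium-dependent factors Nfatc1, Nfatc2 and Nfatc3, the tonicity-regulated factor Nfat5, and the calcineurin regulators Rcan1 and Rcan3. Poly(A) RNA was sequenced from wild-type C57BL6/J mice that received rapamycin in vivo (3 libraries) or no treatment (3 libraries), and the series asks what inhibition of mTOR does to these cells. The sources used here give no dose, duration, age or vehicle, and do not say whether each library came from its own mouse, so p-values measure the spread between libraries, which may be technical. Libraries held 8757280 to 9315370 expected counts with rapamycin and 9712671 to 11393317 untreated.

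Calcineurin is a phosphatase switched on by calcium and calmodulin when the T cell receptor is engaged. It is a pair of one catalytic and one regulatory subunit, and it removes phosphates from NFATc proteins, which then enter the nucleus and bind DNA, often beside AP-1. Kinases such as GSK3, DYRK and casein kinase I put the phosphates back and send NFAT out again. RCAN proteins bind calcineurin and restrain it, and NFAT5 is a distant relative that calcineurin does not control and that responds to osmotic stress. Rapamycin and the calcineurin inhibitor tacrolimus bind the same immunophilin, the Fkbp1a product, but the complex with rapamycin binds mTOR and not calcineurin.

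Start-site sequences are shown for Rcan1, whose annotated starts differ in NFAT core letters, and for Nfatc3, Nfat5 and Nfatc2, whose levels or balance the results turn on. They come from RefSeq on GRCm38.p6, and each covers 250 bases before to 50 bases after a start, written 5′ to 3′ on the gene's strand. Windows of 7 of the 10 members were used, a count that does not show how many members have an entry in RefSeq. Capitals mark GGAAA or, on the other strand, TTTCC, the NFAT core, which also holds the GGAA core of ETS factor sites. Of 32851 promoters of the same length, 61.3% hold the core at least once and 9.42% at least 3 times. Rcan1 has its upstream start at chr16:92466120-92466419, minus strand, and its downstream start at chr16:92400029-92400328, minus strand. The other windows are chr8:106059340-106059639, plus strand, for Nfatc3, chr8:107293220-107293519, plus strand, for Nfat5, and chr2:168590316-168590615, minus strand, for Nfatc2.
Rcan1, upstream start: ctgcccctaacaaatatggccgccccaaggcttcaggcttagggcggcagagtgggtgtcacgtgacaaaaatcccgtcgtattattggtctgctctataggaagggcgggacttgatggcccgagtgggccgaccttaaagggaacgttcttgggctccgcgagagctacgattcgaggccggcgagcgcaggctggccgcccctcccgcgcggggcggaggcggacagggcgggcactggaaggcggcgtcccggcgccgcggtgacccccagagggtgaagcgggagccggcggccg
Rcan1, downstream start: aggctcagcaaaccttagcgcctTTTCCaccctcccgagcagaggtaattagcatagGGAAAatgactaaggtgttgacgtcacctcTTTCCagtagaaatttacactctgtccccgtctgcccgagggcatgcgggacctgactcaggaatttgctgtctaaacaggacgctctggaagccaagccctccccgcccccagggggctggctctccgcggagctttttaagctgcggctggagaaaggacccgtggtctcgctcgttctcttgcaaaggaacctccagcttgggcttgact
Nfatc3, second start: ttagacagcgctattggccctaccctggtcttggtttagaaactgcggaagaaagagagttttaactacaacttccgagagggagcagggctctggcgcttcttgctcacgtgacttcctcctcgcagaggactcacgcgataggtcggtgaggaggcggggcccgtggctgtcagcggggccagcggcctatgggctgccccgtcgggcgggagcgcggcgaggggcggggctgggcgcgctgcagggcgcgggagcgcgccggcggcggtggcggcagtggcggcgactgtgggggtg
Nfat5: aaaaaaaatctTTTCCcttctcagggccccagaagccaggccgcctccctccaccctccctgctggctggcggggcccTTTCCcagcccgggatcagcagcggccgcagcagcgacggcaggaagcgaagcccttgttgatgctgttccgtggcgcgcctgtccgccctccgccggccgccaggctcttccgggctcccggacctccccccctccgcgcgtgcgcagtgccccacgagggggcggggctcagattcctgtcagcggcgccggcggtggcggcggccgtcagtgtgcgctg
Nfatc2, second start: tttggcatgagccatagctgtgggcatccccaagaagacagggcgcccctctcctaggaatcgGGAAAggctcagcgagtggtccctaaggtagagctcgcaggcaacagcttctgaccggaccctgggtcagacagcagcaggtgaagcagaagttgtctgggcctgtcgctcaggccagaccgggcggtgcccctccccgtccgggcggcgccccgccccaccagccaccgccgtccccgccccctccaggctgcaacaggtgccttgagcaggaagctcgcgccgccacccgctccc
The downstream Rcan1 window holds 3 cores and the upstream one none. The Nfat5 window holds 2. The second start of Nfatc2 holds 1 and its first start, not printed, holds 3, while the second start of Nfatc3 holds none and its first start 1. The second starts are printed because the mean transcript lengths, 6238 bases for Nfatc2 and 5698 for Nfatc3, exceed those of every transcript annotated from the first starts, at most 2742 and 3712 bases. Among the other members whose windows were used, Ppp3cb holds 4 (at least 4 in 2.65% of all promoters), Rcan3 holds 1 and Ppp3r1 none. A match describes letters and does not show that NFAT binds there.

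All 10 members were expressed well enough to pass the filter on low counts that left 11950 genes. With rapamycin 4 members rose, Nfatc3, Nfat5, Rcan3 and Nfatc1, and 2 fell, Ppp3r1 and Nfatc2, at an adjusted p under 0.05 in the quasi-likelihood test of edgeR, adjusted after Benjamini and Hochberg. Ppp3ca, Ppp3cb, Ppp3cc and Rcan1 did not pass. Over all tested genes 24.1% rose and 23.3% fell, or 47.4% in either direction, beside 6 of the 10 members, and with so few genes no more is read from that count. In CPM 4 members lay higher and 2 lower without overlap, against 26.9% and 26.8% of all genes (53.8% in either direction). In TPM 4 lay higher without overlap, against 32.2% of all genes (14.8% lay lower and 47.0% in either direction). The median log2 fold change was −0.05 over the members and −0.01 over all tested genes. Fold changes are rapamycin over untreated, counts are scaled to CPM with TMM library factors, and TPM is the authors' level per transcript length.

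**Figure D1:**
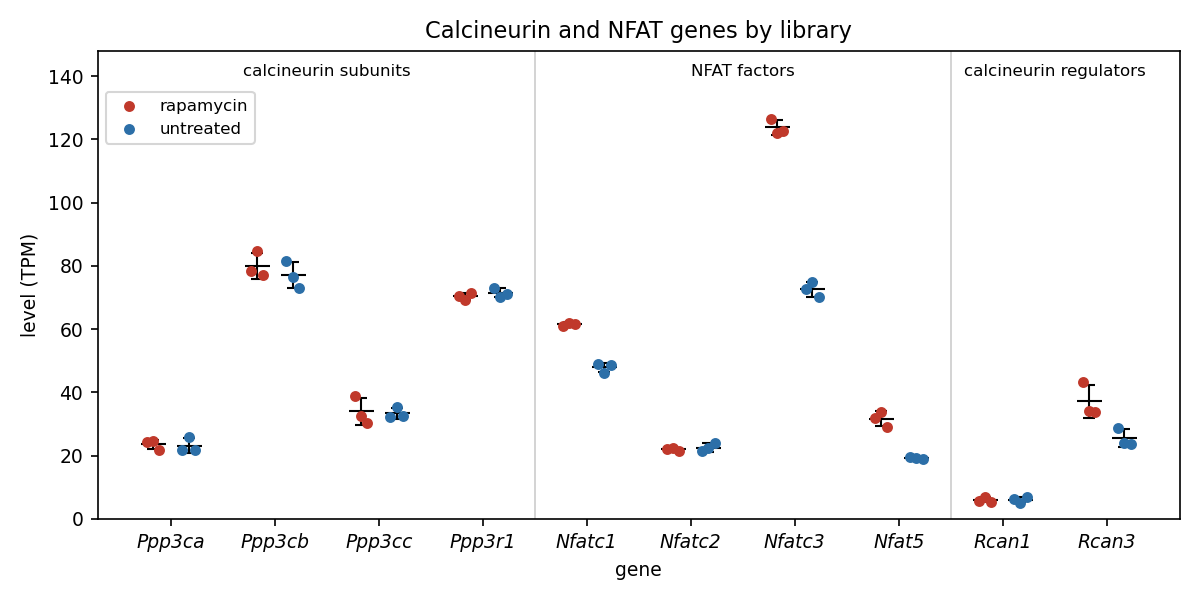
Level of each gene in TPM (vertical axis) in the 3 rapamycin libraries (red, left of each pair) and the 3 untreated libraries (blue, right). Black lines are the mean and SD over n = 3 libraries. Nfatc1, Nfatc3, Nfat5 and Rcan3 do not overlap between the groups, and the 4 calcineurin subunit genes, Nfatc2 and Rcan1 do.

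Ppp3cb was the main catalytic subunit gene in both groups. This gene, which encodes the beta form of the phosphatase, had 78.3, 84.8 and 76.9 TPM with rapamycin and 81.5, 76.6 and 73.1 TPM untreated. Ppp3cc, which encodes the gamma form, had 38.9, 32.5 and 30.4 TPM with rapamycin against 32.2, 35.3 and 32.5 TPM untreated. Ppp3ca, which encodes the alpha form, was lowest of the 3, with 24.3, 24.6 and 21.9 TPM in rapamycin libraries and 21.9, 25.8 and 21.8 TPM in untreated ones. The groups overlapped for each of these genes. Summed TPM of the 3 was 138 ± 7.17 with rapamycin and 134 ± 5.39 untreated (SD, n = 3 each).

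Counts of the catalytic subunit genes did not pass the test. Log2 fold changes were −0.06 for Ppp3ca (interval of 1.96 SE, −0.17 to 0.05, edgeR adjusted p = 0.419) and −0.05 for Ppp3cb (−0.12 to 0.03, edgeR adjusted p = 0.315). That of Ppp3cc was −0.06 (−0.20 to 0.08, edgeR adjusted p = 0.547). The intervals cover the error of this fit only, and a value from another scaling can lie outside them. After a correction for gene length, described below with the length trend, Ppp3ca was lower by a log2 fold change of −0.22 ± 0.06 (SE, edgeR adjusted p = 0.00113). Ppp3cb passed with upper-quartile scaling, at −0.09 (edgeR adjusted p = 0.0452).

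The shares of the catalytic subunits did not differ beyond the spread of the libraries. Ppp3cb made up 58.2 ± 2.47% of their summed TPM with rapamycin and 57.7 ± 2.26% untreated (SD, n = 3 each; exact two-sided permutation p = 1). Ppp3ca held 17.2 ± 0.191% with rapamycin and 17.3 ± 1.28% untreated (exact permutation p = 0.9). Ppp3cc held 24.6 ± 2.47% with rapamycin and 25.0 ± 1.08% untreated (exact permutation p = 0.8). With 3 libraries against 3, the smallest p this test can give is 0.1.

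Ppp3r1 encodes calcineurin B, the calcium-binding regulatory subunit (mm10 chromosome 11, 17159263 to 17200375). It had 127, 127 and 126 CPM with rapamycin and 143, 138 and 139 CPM untreated, with all rapamycin libraries below all untreated ones. The log2 fold change was −0.15 ± 0.04 (edgeR adjusted p = 0.00115). In TPM the groups overlapped, at 70.4, 69.1 and 71.5 with rapamycin and 73.1, 70.3 and 71.2 untreated. On log2(TPM + 1), where the median of all tested genes was shifted by 0.09, limma gave −0.02 ± 0.05 (adjusted p = 0.729). The ratio of Ppp3r1 to the summed catalytic subunits, in log2 TPM, was −0.97 ± 0.10 with rapamycin and −0.90 ± 0.07 untreated (SD, n = 3 each; exact permutation p = 0.4). Wdr92, a neighbour on the same strand whose annotation overlaps Ppp3r1, was counted separately, and its counts equalled 12% of those of Ppp3r1. Not scaled for depth, Wdr92 had 106 to 141 counts with rapamycin and 185 to 194 untreated.

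Among the NFAT factors Nfatc3 changed most, and it was the most abundant member with rapamycin. Nfatc3 (ENSMUSG00000031902, mm10 chromosome 8, 106058840 to 106130537) is a calcium-dependent factor with known roles in thymocytes and T cells. It had 127, 122 and 123 TPM with rapamycin and 72.7, 74.9 and 70.1 TPM untreated. In CPM it had 488, 474 and 473 with rapamycin and 304, 310.1 and 295 untreated, and no library of one group reached the other. The log2 fold change was 0.66 ± 0.03, a ratio of 1.58 (edgeR adjusted p = 1.7e-30). It was 0.43 ± 0.03 after length correction (edgeR adjusted p = 6.5e-21) and lay between 0.43 and 0.77 over 19 alternative settings.

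Nfatc1 (mm10 chromosome 18, 80606205 to 80713071) encodes a factor whose short form NFAT itself induces in activated lymphocytes. It had 60.9, 62.0 and 61.6 TPM with rapamycin and 48.8, 46.1 and 48.7 TPM untreated. The rapamycin libraries lay close together and above every untreated one. Its log2 fold change was 0.27 ± 0.03 (edgeR adjusted p = 1.0e-09) and 0.11 ± 0.03 after length correction (edgeR adjusted p = 0.00718). The tables give levels per gene, so its forms are not told apart here.

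Nfatc2, which encodes an NFAT protein already present in resting T cells (mm10 chromosome 2, 168476410 to 168601657), moved the other way in counts. It had 94.9, 94.5 and 91.4 CPM with rapamycin and 99.5, 105 and 105 CPM untreated, with no overlap. The log2 fold change was −0.14 ± 0.05 (edgeR adjusted p = 0.0119), or −0.39 ± 0.05 after length correction (edgeR adjusted p = 2.5e-10). The call was not held by DESeq2 (−0.13, adjusted p = 0.0623), by offsets from the deposited effective lengths (−0.14, edgeR adjusted p = 0.0987) or without rapamycin replicate 3 (−0.12, edgeR adjusted p = 0.057). In TPM the groups overlapped, with 22.2, 22.4 and 21.5 under rapamycin and 21.3, 22.3 and 23.9 untreated, and limma on log2(TPM + 1) gave −0.03 ± 0.07 (adjusted p = 0.785).

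The balance among the calcium-dependent factors did not overlap between the groups. Nfatc3 made up 60.4, 59.1 and 59.6% of the summed TPM of Nfatc1, Nfatc2 and Nfatc3 with rapamycin and 50.9, 52.3 and 49.1% untreated. Nfatc2 held 10.6, 10.8 and 10.4% with rapamycin and 14.9, 15.6 and 16.8% untreated. Nfatc1 held 29.0, 30.0 and 29.9% with rapamycin and 34.2, 32.2 and 34.1% untreated, a smaller share at a higher level. None of these shares overlapped, and the exact permutation p was 0.1 for each, the lowest the design allows. Nfatc3 and Nfatc2 have mean transcript lengths of 5698 and 6238 bases, in the same group of the length trend, and their log2 ratio was 2.49 ± 0.04 with rapamycin and 1.69 ± 0.12 untreated (SD, n = 3 each; exact permutation p = 0.1). Summed TPM of the 3 factors was 207 ± 2.0 with rapamycin and 143 ± 0.309 untreated (SD, n = 3 each; exact permutation p = 0.1). Set against the catalytic subunits, the NFATc sum had a log2 ratio of 0.59 ± 0.07 with rapamycin and 0.10 ± 0.06 untreated. Values are mean and SD, n = 3 each, and the exact permutation p was 0.1. Mean transcript lengths were 4487.5 to 6238 bases for the NFATc genes and 2592 for Ppp3cb, the main catalytic subunit gene. The part of the length trend in this ratio was not tested.

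**Figure D2:**
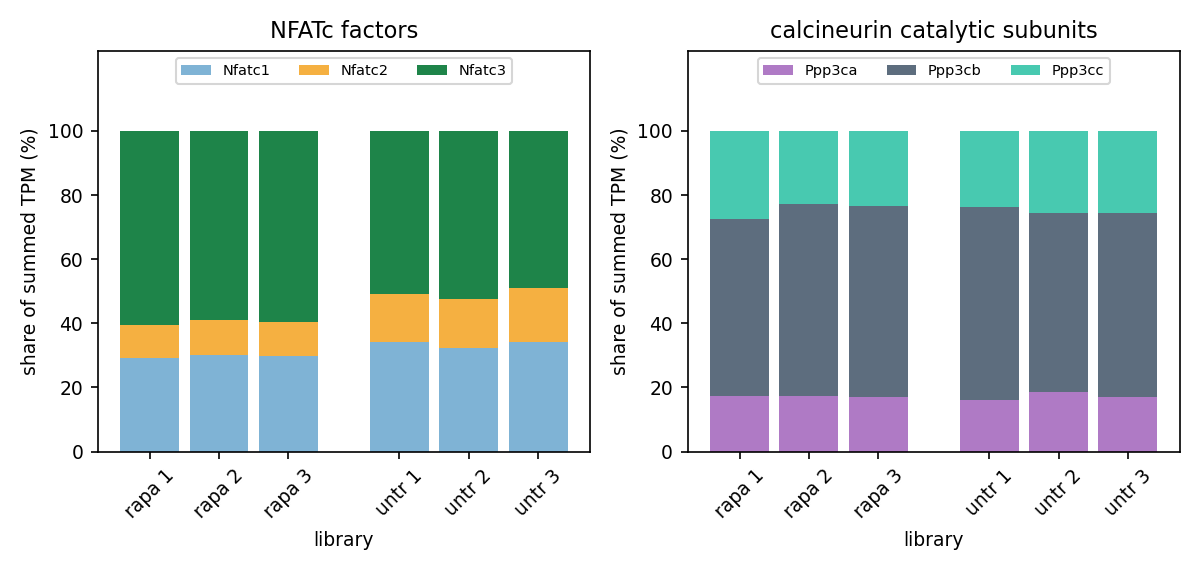
Share of summed TPM (vertical axis, percent) held by each NFATc gene (left panel) and each calcineurin catalytic subunit gene (right panel) in the 3 rapamycin libraries (rapa) and the 3 untreated libraries (untr). Nfatc3 fills 59.1 to 60.4% of the NFATc bar with rapamycin and 49.1 to 52.3% untreated, and the catalytic subunit bars overlap between groups.

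Nfat5 (mm10 chromosome 8, 107293470 to 107379517) drives genes that protect cells from hypertonic stress and lies on the same chromosome as Nfatc3. It had 32.0, 33.9 and 29.1 TPM with rapamycin and 19.5, 19.2 and 19.0 TPM untreated. Its CPM values were 232, 233 and 216 with rapamycin and 159, 167 and 160.2 untreated, again with no overlap. The log2 fold change was 0.49 ± 0.03 (edgeR adjusted p = 1.2e-19) but 0.09 ± 0.03 after length correction (edgeR adjusted p = 0.0309), and 0.69 ± 0.08 on log2(TPM + 1) (limma adjusted p = 6.4e-04). Nfat5 has the longest transcripts of the set, with a mean of 10812 bases, and its log2 fold change ran from 0.09 to 0.71 over the alternative settings.

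Rcan3 encodes a calcineurin-binding protein of the RCAN family (mm10 chromosome 4, 135412308 to 135433853). It had 43.2, 34.2 and 33.9 TPM with rapamycin and 28.7, 23.9 and 23.7 TPM untreated. All rapamycin libraries lay above all untreated ones, and replicate 1 was the highest in each group. The log2 fold change was 0.38 ± 0.05 (edgeR adjusted p = 2.7e-09), and 0.22 ± 0.05 after length correction (edgeR adjusted p = 2.4e-04). Rcan1, the family member that calcium signals induce through NFAT, was the lowest of the set, with 5.75, 6.90 and 5.35 TPM with rapamycin and 6.36, 5.08 and 6.82 TPM untreated. Its log2 fold change of −0.23 had an interval of −0.54 to 0.08 (edgeR adjusted p = 0.238), so that a moderate change was not detectable at 68 to 116 counts a library. Summed TPM of the 2 RCAN genes over that of the catalytic subunits had a log2 ratio of −1.68 ± 0.13 with rapamycin and −2.09 ± 0.15 untreated. Values are mean and SD, n = 3 each, and the exact permutation p was 0.1. Rcan3 has a mean transcript length of 4462 bases and Ppp3cb 2592. The part of the length trend in this ratio was not tested.

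RSEM also gives each gene a mean transcript length weighted by the abundance of its transcripts, which moves when the mix of transcripts moves. For Rcan1 (mm10 chromosome 16, 92391953 to 92470867) this length was 2195, 1988 and 2319 bases with rapamycin and 2319, 2261 and 2319 bases untreated. In the 3 libraries with 2319 bases it equalled, within 0.005 bases, the length of transcript Rcan1-206. That transcript starts at 92466143, inside the upstream window printed above that holds no NFAT core. The transcript from the downstream start, at 92400077, is 2190 bases long. Groups overlapped and the exact permutation p was 0.4, on few reads.

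Nfat5 was shorter by 1004 bases on average with rapamycin. Its mean transcript length was 10406, 9868 and 10657 bases with rapamycin and 10948, 11682 and 11311 bases untreated. Nfatc3 had 5646, 5685 and 5645 bases with rapamycin and 5739, 5693 and 5780 bases untreated. Both sets of libraries were apart, each at an exact permutation p of 0.1, and the other 8 members overlapped. Among 9902 tested genes whose length varied, 10.3% were shorter and 7.37% longer with rapamycin without overlap, or 17.7% in either direction, beside 2 of the 10 members shorter. The members' count of 2 was 5 without rapamycin replicate 2, and 4 without untreated replicate 1 or without untreated replicate 3. With a library left out, groups separate more easily, and the shares over all genes above are for all libraries. No more is therefore read from these counts.

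Fold changes across the transcriptome followed transcript length, and the members lie in the middle and upper part of that range, at mean lengths of 2147 to 10812 bases. The 9979 genes at or above a mean log2 CPM of 2 were put into 10 equal groups by length. Medians of the log2 fold change were −0.32 in the group of shortest genes and 0.25 in that of the longest, which holds Nfatc2, Nfatc3 and Nfat5. Within it, Nfatc3 lay above 91.9% and Nfat5 above 81.7% of the 998 genes, while Nfatc2 lay above 5.31%. In the group next to it, where the median was 0.13, Rcan3 lay above 85.1%, Nfatc1 above 73.1% and Ppp3ca above 18.3% of 998 genes. The shorter Ppp3cb, Ppp3cc, Ppp3r1 and Rcan1 lay above 39.7%, 45.4%, 22.6% and 19.9% of their groups. Mean fragment lengths, read from the difference between deposited length and effective length, were 252 to 258 bases with rapamycin and 240.2 to 240.8 untreated, and their part in the trend was not tested.

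**Figure D3:**
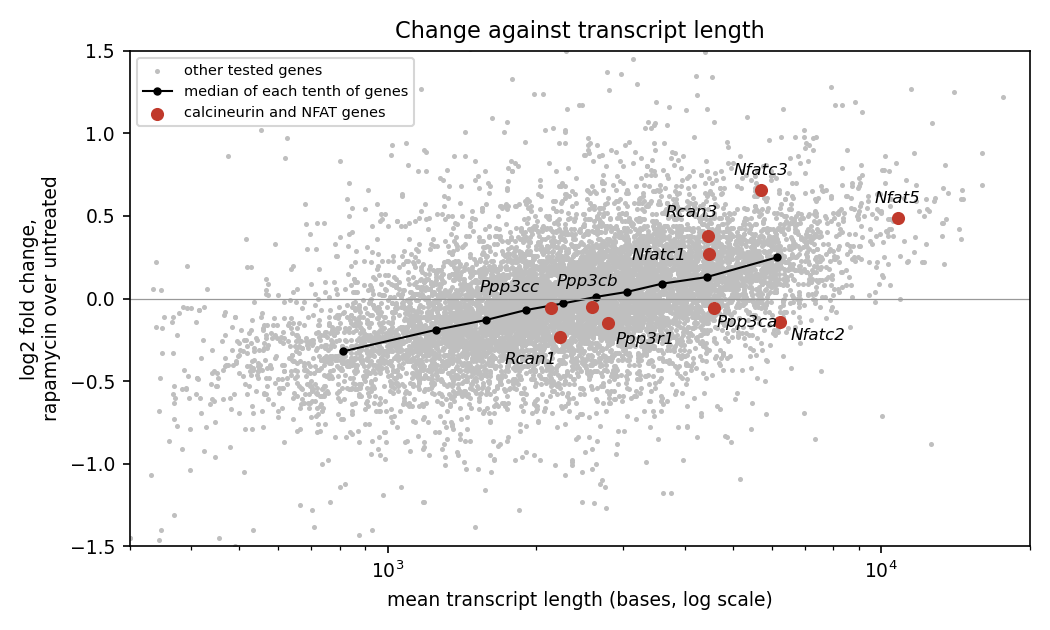
Log2 fold change of rapamycin over untreated by edgeR (vertical axis, drawn between −1.5 and 1.5) against mean transcript length in bases (horizontal log axis) for genes at or above a mean log2 CPM of 2, and genes beyond the drawn ranges are not shown. Grey points are single genes, the black line joins the medians of 10 equal groups by length, and red points are members. Nfatc3 stands above and Nfatc2 below the line at nearly the same length.

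With the length correction, a spline on log2 transcript length entered as offsets, the members counted 4 higher and 3 lower. Over all tested genes 20.2% were then higher and 18.2% lower, 38.4% in all. The higher ones were again Nfatc1, Nfatc3, Nfat5 and Rcan3, and the lower ones were Nfatc2, Ppp3ca and Ppp3r1. On log2(TPM + 1) limma called the same 4 genes higher, against 22.8% of all genes (32.4% in either direction). It called 0 members lower, against 9.63% of all genes, and 0 also had an unadjusted p under 0.05 in that direction, while edgeR called 2 lower and DESeq2 1. Nfatc1, Nfatc3, Nfat5 and Rcan3 rose under each of the 19 alternatives.

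**Figure D4:**
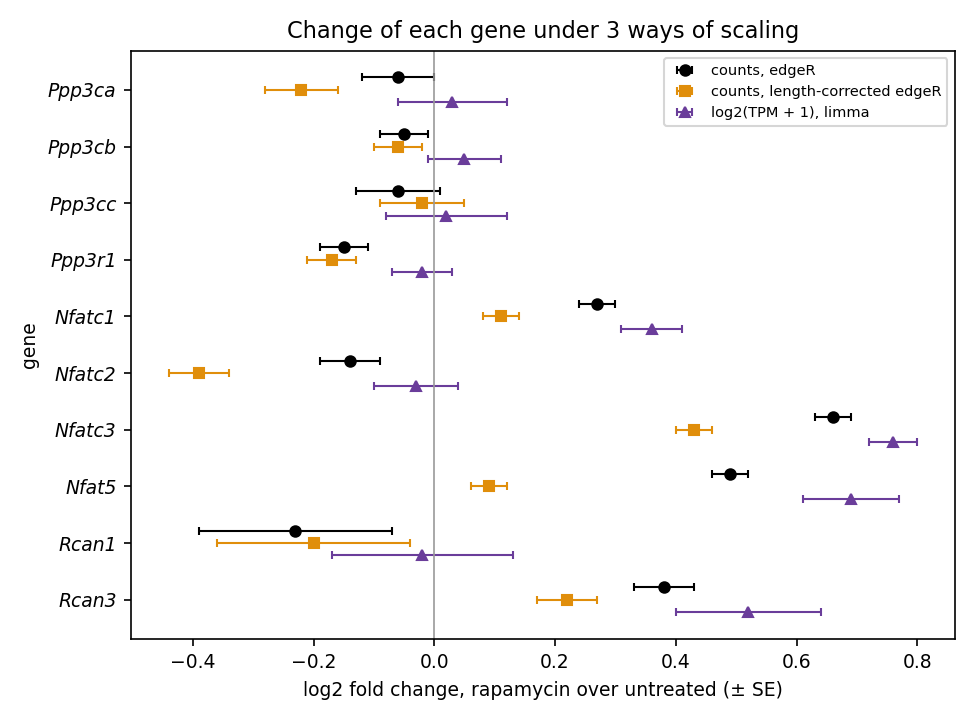
Log2 fold change of rapamycin over untreated (horizontal axis, bars are ± SE) for each gene by edgeR on counts (black circles), by edgeR with length correction (orange squares) and by limma on log2(TPM + 1) (purple triangles). Nfatc1, Nfatc3, Nfat5 and Rcan3 lie to the right of 0 in all 3, while Nfatc2 runs from −0.39 to −0.03.

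By level per length the order of the members changed at the top. With rapamycin it was Nfatc3, Ppp3cb, Ppp3r1 and Nfatc1, with every library of one above every library of the next. Rcan3, Ppp3cc and Nfat5 followed with overlapping libraries, then Ppp3ca and Nfatc2, which overlapped, and Rcan1. Untreated, Ppp3cb, Nfatc3 and Ppp3r1 overlapped at 77.1, 72.6 and 71.5 TPM, above Nfatc1 at 47.9 TPM and Ppp3cc at 33.3 TPM. Rcan3, Ppp3ca and Nfatc2 followed with overlapping neighbours, then Nfat5 and Rcan1. Among the tested genes by mean TPM, Nfatc3 stood at percentile 88.8, Ppp3cb at 85.6, Ppp3r1 at 83.6 and Rcan1 at 24.6.

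The library pattern most like that of Nfatc3, the member with the smallest adjusted p, was found in Git2, Paxbp1 and Zfp292. Their log2 CPM had a Pearson correlation of 0.9996 with Nfatc3 over the 6 libraries, where the difference between the groups sets most of the value. Of 9978 genes, 361 passed 0.99, so these 3 are examples of a common pattern. Their log2 fold changes were 0.38 for Git2, 0.26 for Paxbp1 and 0.52 for Zfp292.

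Other genes of the pathway came from lists written with earlier results of these data known. Of 75 genes in 7 lists, 61 passed the filter, and 29 rose and 12 fell, against 24.1% and 23.3% of all tested genes. After length correction 24 were higher and 9 lower, against 20.2% and 18.2% of all genes. On log2(TPM + 1) 30 were higher and 3 lower by limma, against 22.8% and 9.63% of all genes. By edgeR the median log2 fold change of the 61 was 0.14, against −0.01 for all tested genes, and 0.07 after length correction. The paralogs Nfatc4, Ppp3r2 and Rcan2 had 0 counts in all 6 libraries, which allows up to 0.263 to 0.343 CPM (3 counts, counting error only).

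Calmodulin carries the calcium signal to calcineurin. Calm3, one of its genes, had 129.7, 142 and 137 CPM with rapamycin and 156, 149 and 159 CPM untreated. Its log2 fold change was −0.18 ± 0.04 (edgeR adjusted p = 7.0e-05), and it was not called on log2(TPM + 1), at −0.08 (limma adjusted p = 0.241). Calcineurin-binding and immunophilin genes counted 2 higher and 4 lower of 8, with a median of −0.10, beside 24.1% higher and 23.3% lower over all genes. After length correction they counted 2 higher and 1 lower, against 20.2% and 18.2% of all genes, with a median of 0.00. On log2(TPM + 1) limma called 1 of the 8, which was higher, against 22.8% of all genes. Akap5, a scaffold that anchors calcineurin, had 3.82, 3.72 and 3.94 CPM with rapamycin and 1.04, 2.66 and 2.14 CPM untreated (log2 fold change 0.99 ± 0.30, edgeR adjusted p = 0.00537), a call lost without untreated replicate 1 (0.66, edgeR adjusted p = 0.0786), with effective-length offsets (0.84, edgeR adjusted p = 0.0999) and on log2(TPM + 1) (0.37, limma adjusted p = 0.0928). Fkbp8, an inhibitory immunophilin relative, had −0.19 and Cabin1, a calcineurin inhibitor, 0.14, and neither was called after length correction (−0.04 each). Ppia, the cyclophilin bound by cyclosporin, had −0.16 and turned to 0.12 with that correction, and it has many processed copies that may share its reads. Fkbp1a had −0.13 (edgeR adjusted p = 0.00946), but was not called by DESeq2 (adjusted p = 0.0562) or after that correction (0.03). Mtor, the kinase bound by the drug complex, had 91.2, 93.4 and 92.9 CPM with rapamycin and 75.8, 76.0 and 74.2 CPM untreated, at 0.30 and, length-corrected, 0.01 (not called).

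**Figure D5:**
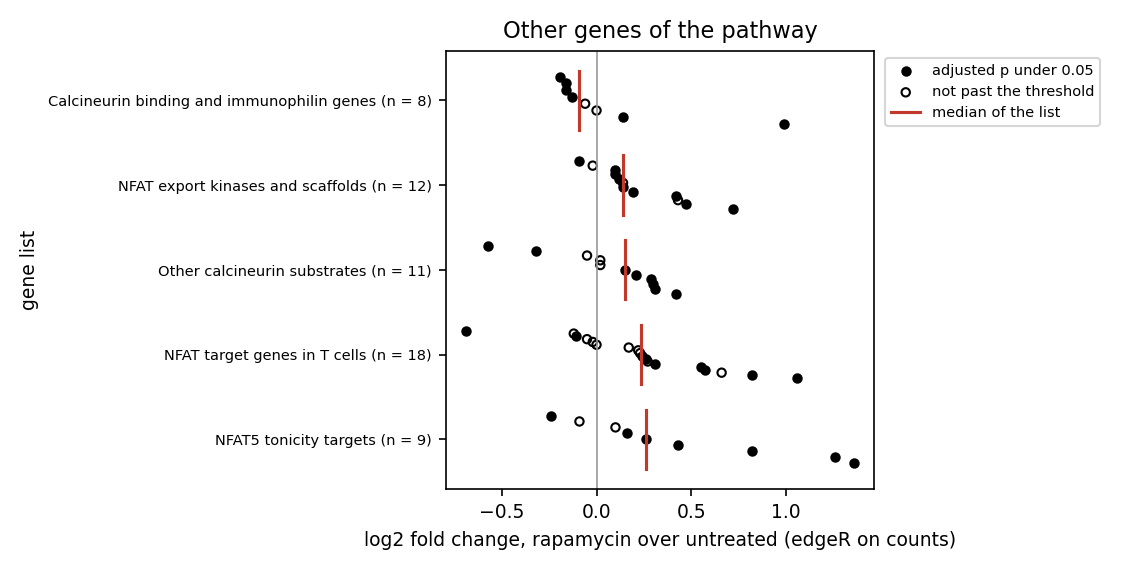
Log2 fold change of rapamycin over untreated by edgeR (horizontal axis) for each tested gene of 5 lists (rows, n is the number tested). Filled points passed an adjusted p of 0.05, open points did not, and red lines are list medians, which run from −0.10 for calcineurin-binding and immunophilin genes to 0.26 for NFAT5 tonicity targets.

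The list of NFAT export kinases and scaffolds also holds the gene of a nuclear import receptor. It counted 8 higher and 1 lower of 12, with a median of 0.14, beside 24.1% higher and 23.3% lower over all genes. Its length-corrected counts were 4 higher, against 20.2% of all genes, and 1 lower, against 18.2%, at a median of 0.07. Dyrk2, a kinase that phosphorylates NFAT, had 251, 261 and 254 CPM with rapamycin and 191, 177 and 186 CPM untreated (log2 fold change 0.47 ± 0.03, edgeR adjusted p = 9.3e-20, length-corrected 0.24). Csnk1e, a casein kinase I gene, had 52.6, 55.9 and 47.0 CPM with rapamycin and 31.3, 31.6 and 31.5 untreated (0.72 ± 0.07, edgeR adjusted p = 8.6e-13, length-corrected 0.77). Gsk3b had 0.19 and Csnk1d 0.14, and neither was called after length correction (−0.04 and 0.07). The gene that fell, chosen for naming after its value was seen, was Kpnb1, which encodes the nuclear import receptor importin beta, at −0.09 (edgeR adjusted p = 0.00647, length-corrected −0.24). On log2(TPM + 1) the sign of Kpnb1 turned and it was not called (0.06, limma adjusted p = 0.325). Other substrates of calcineurin counted 6 higher and 2 lower of 11, with a median of 0.15, beside 24.1% higher and 23.3% lower over all genes. After length correction they counted 4 higher and 2 lower, against 20.2% and 18.2% of all genes, and the median was −0.04. The transcription factor genes Mef2d and Mef2a rose by 0.42 and 0.31 (length-corrected 0.28 and 0.16), the CREB coactivator gene Crtc2 rose by 0.21, and the lysosome regulator gene Tfeb fell, at −0.32 (edgeR adjusted p = 0.00202), but was not called on log2(TPM + 1) (−0.25, limma adjusted p = 0.169). The other one that fell was Bad, a promoter of cell death, at −0.57 (edgeR adjusted p = 0.00207), named after its value was seen, and it was not called after length correction (−0.35, edgeR adjusted p = 0.0728).

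Genes that NFAT is known to bind or induce in T cells were 7 higher and 2 lower of 18 tested, with a median of 0.23, beside 24.1% higher and 23.3% lower over all genes. After length correction they counted 7 higher and 3 lower, against 20.2% and 18.2% of all genes, with a median of 0.14. The other 6 on that list were too low to test. Nr4a1, an early gene of receptor signalling, had 332, 325 and 327 CPM with rapamycin and 228, 226 and 216 CPM untreated (log2 fold change 0.55 ± 0.03, edgeR adjusted p = 9.5e-25). Dgka, a diacylglycerol kinase gene that dampens receptor signals, had 0.26 ± 0.02 (edgeR adjusted p = 7.9e-21). The ubiquitin ligase genes Itch and Cblb had 0.31 and 0.24, and after length correction 0.12 and 0.04, the second not called. The genes that fell were named after their values were seen. Tnf, the cytokine gene, had 16.3, 13.4 and 11.2 CPM with rapamycin and 24.1, 22.5 and 19.4 CPM untreated (log2 fold change −0.69 ± 0.12, edgeR adjusted p = 1.8e-06, length-corrected −0.59). Myc, a growth regulator gene, had −0.11 (edgeR adjusted p = 0.0289) and was not called after length correction (−0.06). Tonicity targets of NFAT5 were 6 higher and 1 lower of 9, with a median of 0.26, beside 24.1% higher and 23.3% lower over all genes. After length correction 6 of the 9 were called, all higher, against 20.2% higher and 18.2% lower over all genes, with a median of 0.32. The gene that fell, also named after its value was seen, was Akr1b3, an aldose reductase gene, at −0.24 (edgeR adjusted p = 3.4e-06), and it was not called after length correction (−0.09, edgeR adjusted p = 0.0812). Slc5a3, the inositol carrier gene, had 36.9, 36.8 and 35.2 CPM with rapamycin and 19.4, 22.6 and 19.5 CPM untreated (0.82 ± 0.09, edgeR adjusted p = 6.4e-12, length-corrected 0.42). The amino acid carrier gene Slc38a2 had 0.26 (length-corrected 0.07). The heat shock genes Hspa1b and Hspa1a had 1.26 and 1.36, and both are among the 6 called higher with and without length correction. They are near-identical copies whose reads may be divided between them, so their calls may not be independent.

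Marker levels differed between the groups beside these results. The counts of markers called stand beside 24.1% higher and 23.3% lower over all tested genes. Summed CPM of 8 naive CD4+ T cell markers was 6183 to 6273 with rapamycin and 5355 to 5418 untreated, with 4 higher and 3 lower of the 8 and a median log2 fold change of 0.04. Markers of the labelled cell type were thus present in all libraries. Memory or effector markers, of which 5 of 5 tested fell, summed to 103 to 106 CPM with rapamycin against 196 to 201 CPM untreated. Myeloid markers, of which 8 of 9 fell, summed to 15.0 to 17.0 CPM with rapamycin against 48.2 to 55.0 untreated, and plasma cell markers, 5 of 6 lower, to 629.9 to 643 CPM with rapamycin against 975 to 1001 CPM untreated. The plasma cell list was Jchain, Mzb1, Sdc1, Igkc, Ighm and Ighg2b, of which Igkc and Ighm are not particular to plasma cells. The CD8 T cell markers Cd8a and Cd8b1 both rose, to 87.9 to 91.0 CPM with rapamycin, against 19.1 to 20.4 CPM untreated. B cell markers, 2 of 8 lower, summed to 557 to 591 CPM with rapamycin and 573 to 608 CPM untreated. NK cell markers, 1 higher and 2 lower of 5, summed to 58.2 to 61.4 CPM with rapamycin and 62.7 to 65.7 CPM untreated. Regulatory T cell markers, 2 higher and 2 lower of 6, summed to 94.0 to 102 CPM with rapamycin and 107 to 109.8 CPM untreated. Erythroid markers, 2 of 3 lower, summed to 2.62 to 3.13 CPM with rapamycin against 7.99 to 11.3 CPM untreated. The part of these cells in the members' changes was not tested, and in bulk RNA fewer cells of a type and less RNA per cell cannot be told apart.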

How the data were processed

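STAR and RSEM, on mm10, made the tables per the submitters' processing notes, and their versions and the annotation are not given in the sources used here. Libraries were directional and came from poly(A) RNA, per the labels' protocols, and whether counting used strand is not stated. The deposited expected counts are RSEM estimates per gene. The authors' TPM values allow for depth and for effective length, and the deposited FPKM values served 1 alternative. The length columns, per the file headers, give a gene's mean transcript length and its effective length. Gene symbols and positions were read from GENCODE vM21 (GRCm38, which is mm10), where 55141 of 55487 identifiers matched.

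Expected counts were rounded, filtered with filterByExpr (11950 genes kept), scaled with TMM and compared with edgeR's quasi-likelihood test (robust, group as the only term), with Benjamini-Hochberg adjustment over all tested genes and a threshold of 0.05. SE is the log2 fold change over the square root of F. The length correction used a spline of 5 degrees of freedom on genes at or above a mean log2 CPM of 2. Shares, ratios and lengths were compared by exact permutation tests. Tests ran in edgeR 4.0.16, DESeq2 1.42.0 and limma 3.58.1 under R 4.3.3, and in scipy 1.17.1 under Python 3.11.15, with figures drawn in matplotlib 3.10.9.

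The members, gene lists, tests and alternatives were chosen with earlier results of these data known. All members are named, and of each list up to 4 genes past the threshold by smallest adjusted p, or up to 2 by level where none passed, plus Mtor and Fkbp1a. Some genes that this rule names are not reported here. Alternatives were other scaling factors and filters, limma-voom, DESeq2, TPM in limma with pseudocounts of 1 and 0.1, length offsets, a replicate block, and leaving out each library.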

Additional observations from a re-analysis of the deposited data

How the results depend on the processing

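Same-numbered libraries had correlations of deviations of −0.105, 0.0464 and −0.0861, and differently numbered ones −0.0914 to 0.162. With 3 libraries a group, these values cannot decide whether the libraries were paired. With the replicate block 5593 genes were called, against 5659 without, and 4 members higher and 2 lower as before. Offsets from effective lengths called 3731 genes. Calls were 50.8% higher with TMM, 42.5% with upper-quartile factors, 42.8% with no factors, and 70.3% on log2(TPM + 1), where the median of all genes was 0.09.

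Of 190 alternative values of the members' fold changes, 172 kept direction and side of the threshold, 7 lost and 3 gained a call, and 8 changed sign. With TPM, at pseudocounts of 1 and 0.1, the sign turned for Ppp3ca (0.03), Ppp3cb (0.05), Ppp3cc (0.02) and Fkbp1a (0.08). At a pseudocount of 1 it also turned for Kpnb1 (0.06). Length correction, with or without the replicate block, turned Ppia (0.12), Cabin1 (−0.04), Gsk3b (−0.04) and Fkbp1a (0.03). Leaving out 1 library gave −0.10 to 0.01 for Ppp3ca and −0.17 to 0.01 for Ppp3cc. The difference in share ranged from −0.75 to 0.522 percentage points for Ppp3ca, −0.542 to 1.92 for Ppp3cb and −1.74 to 0.535 for Ppp3cc. Differences in mean transcript length ranged from −195 to 18 bases for Nfatc2, −92 to 67 for Ppp3ca and −64 to 57 for Ppp3cb. In length 2 to 5 members did not overlap, where leaving out a library makes separation easier. The causes were not tested. Rcan1, at 68 to 116 counts, is the member that depth limits most.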
